A study of Mus musculus and Rattus norvegicus with 36 samples.

Results

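The genes of cholesterol and fatty acid synthesis were followed across dietary Se levels in the liver and kidney of mice and the liver of rats. A list of 33 genes was taken, and each gene was represented by 1 probe set, the brightest on average in that tissue among those carrying its symbol alone. Probe sets were found for 32 of the 33 genes on the mouse array, where Soat1 was missing, and for 31 on the rat array, where Hmgcs1 and Scd1 were missing. These stood among 45037 mouse and 31042 rat probe sets tested. Male weanling mice of a predominantly C57 black colony received a torula-yeast basal diet for 35 days, either without added Se (Se-deficient) or supplemented with selenite to 0.05 μg Se/g or to 0.2 μg Se/g. Male weanling Holtzman rats received the same kind of basal diet for 28 days, Se-deficient or supplemented to 0.08, to 0.24, to 0.8, to 2 or to 5 μg Se/g. Vitamin E and methionine were added to every diet, livers were perfused before removal, and each of the 36 arrays (3 per group) held the RNA of 1 animal. Following the study's methods, the rats at 0.08 and at 0.8 were taken as rat study 1 and the Se-deficient rats with those at 0.24, 2 and 5 as rat study 2. The diets share their reference arrays within a tissue or study, so comparisons against the same diet are not independent. All levels are log2 values, so that a difference of 1 is a 2-fold change.

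Cholesterol is built from acetyl-CoA through mevalonate, isoprenoids and squalene to lanosterol, and then through a chain of sterol intermediates. Fatty acids are built from citrate-derived acetyl-CoA, and are then lengthened by elongases and desaturated. In liver both routes are driven by the transcription factors SREBP-2 (Srebf2, mainly sterol genes) and SREBP-1c (Srebf1, mainly fatty acid genes), which the Insig proteins hold in the endoplasmic reticulum when sterols are plentiful. The 33 genes were grouped by role into 6 enzymes of early sterol synthesis, 9 of late sterol synthesis, 4 sterol regulators, 3 genes of sterol transport and esterification, 6 genes of fatty acid synthesis and 5 of elongation and desaturation.

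Promoter windows of 300 bases around a transcription start (250 bases before to 50 after) were held for 26 of the 33 genes in mouse (RefSeq, GRCm38.p6), and 3 of them are printed because Hmgcs1 carries the sterol regulatory element and Insig2 and Elovl5 are the 2 genes that were lower in rat liver at 5 μg Se/g. Capitals mark the sterol regulatory element TCACNCCAC and the CCAAT box CCAAT, each searched on both strands. Where a gene has several windows, the one with the most of these motifs is printed, and the other windows of Insig2 held neither.
Hmgcs1, chr13:119690101-119690400, strand +: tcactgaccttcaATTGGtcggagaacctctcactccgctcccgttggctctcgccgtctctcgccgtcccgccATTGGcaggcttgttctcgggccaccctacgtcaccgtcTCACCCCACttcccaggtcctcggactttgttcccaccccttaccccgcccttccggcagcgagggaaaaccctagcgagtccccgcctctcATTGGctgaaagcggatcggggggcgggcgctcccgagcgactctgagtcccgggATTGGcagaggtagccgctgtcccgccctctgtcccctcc
Insig2, chr1:121332540-121332839, strand -: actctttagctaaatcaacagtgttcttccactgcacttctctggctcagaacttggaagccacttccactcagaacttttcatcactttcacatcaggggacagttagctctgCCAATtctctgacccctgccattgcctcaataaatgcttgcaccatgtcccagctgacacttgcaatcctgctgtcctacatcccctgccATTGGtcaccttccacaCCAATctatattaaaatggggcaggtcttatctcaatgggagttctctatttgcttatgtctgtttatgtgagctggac
Elovl5, chr9:77917115-77917414, strand +: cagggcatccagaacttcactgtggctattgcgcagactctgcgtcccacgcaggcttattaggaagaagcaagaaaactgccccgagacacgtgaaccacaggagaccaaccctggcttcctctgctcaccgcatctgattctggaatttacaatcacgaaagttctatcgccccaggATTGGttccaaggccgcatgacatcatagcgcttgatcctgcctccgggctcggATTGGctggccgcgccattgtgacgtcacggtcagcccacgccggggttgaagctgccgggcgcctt

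The element TCACNCCAC was found in 1 of the 26 genes (3.85%), Hmgcs1, and in 1.44% of all 27025 genes with a window. Only exact matches were counted, and genes without a window, among them Fdps, Fdft1, Sqle and Scd1, could not be searched. The E-box CACGTG, which is not marked by capitals, was found in 5 of the 26 genes (19.2%), Elovl5 among them, and in 8.09% of all genes. The CCAAT box was found in a window of 23 of the 26 genes (88.5%), and in 41.1% of all genes. It was present in all 5 early and all 7 late sterol synthesis genes with a window and in all 4 sterol regulators, but in 1 of 3 genes of elongation and desaturation. Counted by window, as several genes have more than 1, it stood in 70.6% of the 34 windows of these genes and in 37.4% of all windows. The windows describe mouse sequence, whereas the changes reported below for Insig2 and Elovl5 were measured in rats.

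The tissues carried the markers of their labels. Over the arrays, the mean of the hepatocyte markers lay between 13.74 and 13.92 in rat liver and between 13.91 and 14.06 in mouse liver, and that of the kidney tubule markers between 12.05 and 12.32 in mouse kidney, against 5.55 to 5.95 for the tubule markers in mouse liver. Arrays of 1 group correlated at r = 0.989 or higher over all probe sets, with the exception of rats fed 2 μg Se/g (r between 0.972 and 0.99). Replicate 1 of that diet departed from the 0.24 μg Se/g mean by more than 2-fold at 1964 probe sets, against 136 and 147 for replicates 2 and 3. All are bulk tissue values, in which fewer cells of a type and less RNA per cell cannot be told apart.

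At 5 μg Se/g in rat liver, 4 of the 31 genes differed from 0.24 μg Se/g at an adjusted p under 0.05 (limma, Benjamini-Hochberg over all probe sets; called below). Star, which carries cholesterol into mitochondria for steroid synthesis, and Soat1, which esterifies cholesterol for storage, were higher. Insig2, a retention protein for SREBP, and Elovl5, an elongase of polyunsaturated fatty acids, were lower. The 2 genes called higher stood beside 2.21% of all probe sets called higher, and the 2 called lower beside 0.609% called lower. The other 27 genes, among them all 14 measured sterol synthesis enzymes and all 6 genes of fatty acid synthesis, did not pass the test.

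Star (probe set 1368406_at) lay at 6.90, 7.27 and 7.65 at 5 μg Se/g, against 5.72, 5.64 and 5.52 at 0.24 μg Se/g. All 3 arrays at 5 μg Se/g were above every other rat array, since the 15 arrays of the other diets lay between 5.41 and 5.73. The levels at 0.24 μg Se/g lay below the medians of those arrays (6.26 to 6.28) and no detection calls were used, so no fold is given, and the change is that of the log2 signal (1.65 ± 0.16 SE, adjusted p = 0.00046, n = 3 each). The second Star probe set moved in the same direction, by 2.34 ± 0.16 (adjusted p = 0.00012). Star is best known from steroid-producing tissue. The 6 measured adrenal cortex markers were not called (Cyp11a1 averaged 5.25 and 5.17, and Cyp11b1 3.89 and 4.06, on the 5 and 0.24 μg Se/g diets), with changes between -0.36 and 0.14 and a summed level of 8.98 to 9.65 at 5 μg Se/g, against 8.95 to 10.31 at 0.24 μg Se/g.

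Soat1 (1374976_a_at) lay at 6.40, 6.63 and 6.30 at 5 μg Se/g, against 5.93, 5.92 and 5.75 at 0.24 μg Se/g. The groups did not overlap, and the log2 change was 0.57 ± 0.13 (SE, adjusted p = 0.036, n = 3 each). As for Star, the levels at 0.24 μg Se/g lay below the medians of those arrays (6.26 to 6.28), so no fold is given. At 2 μg Se/g Soat1 lay at 6.41, 6.17 and 5.96, a log2 change of 0.31 ± 0.13 that was not called (adjusted p = 0.32). A second Soat1 probe set gave 0.43 ± 0.16 at 5 μg Se/g and was not called (adjusted p = 0.23). The call for Soat1 was lost when any 1 of 9 of the 12 arrays of rat study 2 was left out, with adjusted p up to 0.15. Stard4, a cytosolic sterol carrier and the third gene of this role, lay at 9.18, 8.94 and 9.53 at 5 μg Se/g, against 9.47, 9.96 and 10.12 at 0.24 μg Se/g (log2 change -0.63 ± 0.30, adjusted p = 0.35).

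Insig2 (1393690_at) lay at 12.36 on each of the 3 arrays at 5 μg Se/g, against 12.97, 13.11 and 12.81 at 0.24 μg Se/g. The 15 arrays of the other diets ranged from 12.67 to 13.11, so that the groups did not overlap, and Insig2 at 5 μg Se/g was 65.9% of its level at 0.24 μg Se/g (log2 change -0.60 ± 0.11 SE, adjusted p = 0.012, n = 3 each). The second Insig2 probe set was not called, at -0.76 ± 0.19 (adjusted p = 0.066). Its relative Insig1, itself an SREBP target, lay at 12.57, 12.34 and 11.53 at 5 μg Se/g, against 11.99, 12.39 and 12.20 at 0.24 μg Se/g, and the groups overlapped (log2 change -0.05 ± 0.43). The call for Insig2 was lost without replicate 1 or replicate 2 at 5 μg Se/g or replicate 2 at 0.24 μg Se/g, where adjusted p lay between 0.052 and 0.054.

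Elovl5 (1388348_at) lay at 12.33, 12.89 and 12.82 at 5 μg Se/g, against 13.30, 13.50 and 13.46 at 0.24 μg Se/g. The other 15 rat arrays all lay between 13.18 and 13.70, above the arrays at 5 μg Se/g. The log2 change was -0.74 ± 0.16 (SE, adjusted p = 0.035, n = 3 each), and a second Elovl5 probe set was also called, at -1.26 ± 0.28 (adjusted p = 0.036). The call on the first probe set was lost in 8 of the 12 fits that left out 1 array, with adjusted p up to 0.13. None of the other genes of its role were called. The desaturases Fads1 and Fads2 had changes of 0.00 ± 0.15 and -0.03 ± 0.10. Elovl6, which lengthens palmitate, lay at 11.46, 9.24 and 8.88 at 5 μg Se/g, on either side of its 10.32, 10.27 and 10.16 at 0.24 μg Se/g.

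**Figure D1:**
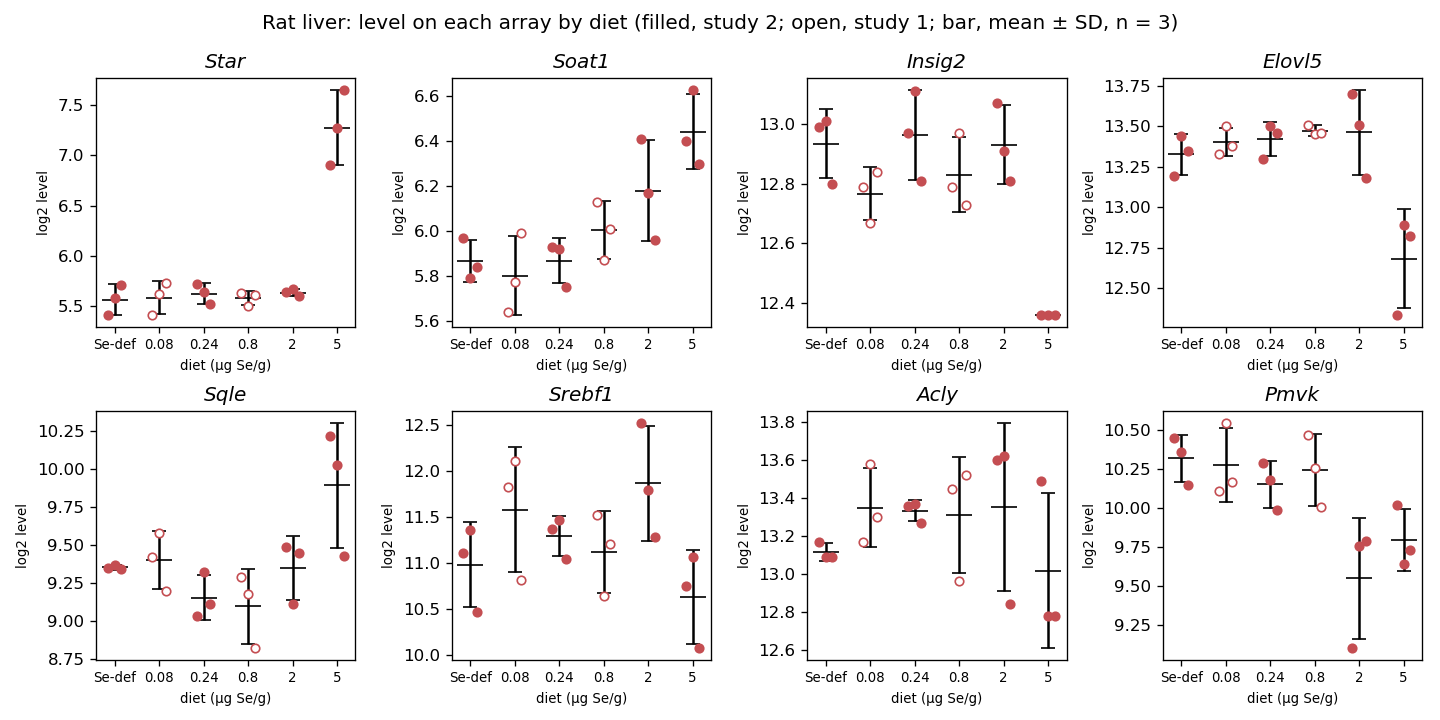
Log2 level of 8 genes on each rat liver array (vertical axes) by diet in μg Se/g (horizontal axes), as points with mean ± SD of 3 arrays; filled points are rat study 2 and open points rat study 1. Star at 5 μg Se/g (6.90 to 7.65) and Insig2 and Elovl5 at 5 μg Se/g (12.36, and 12.33 to 12.89) lie outside the range of all other diets. The rat studies were normalized separately.

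Among the sterol synthesis enzymes, Sqle, the squalene epoxidase that performs a rate-controlling step, came closest to a call. It lay at 10.22, 10.03 and 9.43 at 5 μg Se/g, against 9.03, 9.32 and 9.11 at 0.24 μg Se/g. The groups did not overlap and the log2 change was 0.74 ± 0.18, with an adjusted p of 0.052 (n = 3 each). Sqle passed the threshold in 4 of 9 alternatives (lowest adjusted p 0.0042) and in 3 of the 12 fits that left out 1 array, where the adjusted p lay between 0.0029 (without replicate 3 at 5 μg Se/g, log2 change 0.98) and 0.2. Pmvk, phosphomevalonate kinase, had the smallest p of the early enzymes, at 10.02, 9.64 and 9.73 at 5 μg Se/g, against 10.29, 10.18 and 9.99 at 0.24 μg Se/g (log2 change -0.36 ± 0.18, adjusted p = 0.40). Early enzymes lay between -0.36 and 0.46 and late enzymes between -0.32 and 0.74, with medians of 0.17 and 0.16, while the median of all probe sets was -0.034. Acly, the citrate lyase that supplies acetyl-CoA, had the smallest p in fatty acid synthesis, at 13.49, 12.78 and 12.78 at 5 μg Se/g, against 13.36, 13.37 and 13.27 at 0.24 μg Se/g (log2 change -0.32 ± 0.22, adjusted p = 0.56). The 6 genes of that role lay between -0.32 and 0.04.

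Over all 31 genes at 5 against 0.24 μg Se/g, 12 changes were positive and 19 negative, with a median of -0.05. The arrays of the 2 diets did not overlap for 4 genes that were higher and 4 that were lower, which are shares near the background, as 11.1% of all probe sets did not overlap and were higher and 12.5% did not overlap and were lower. Besides the 4 genes called, these were Mvk, mevalonate kinase, and Sqle above, and Nsdhl and Sc5d, enzymes of the late sterol chain, below. Sc5d lay at 11.73, 11.39 and 11.51 at 5 μg Se/g, against 11.92, 11.83 and 11.85 at 0.24 μg Se/g (log2 change -0.32 ± 0.10, adjusted p = 0.13).

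**Figure D2:**
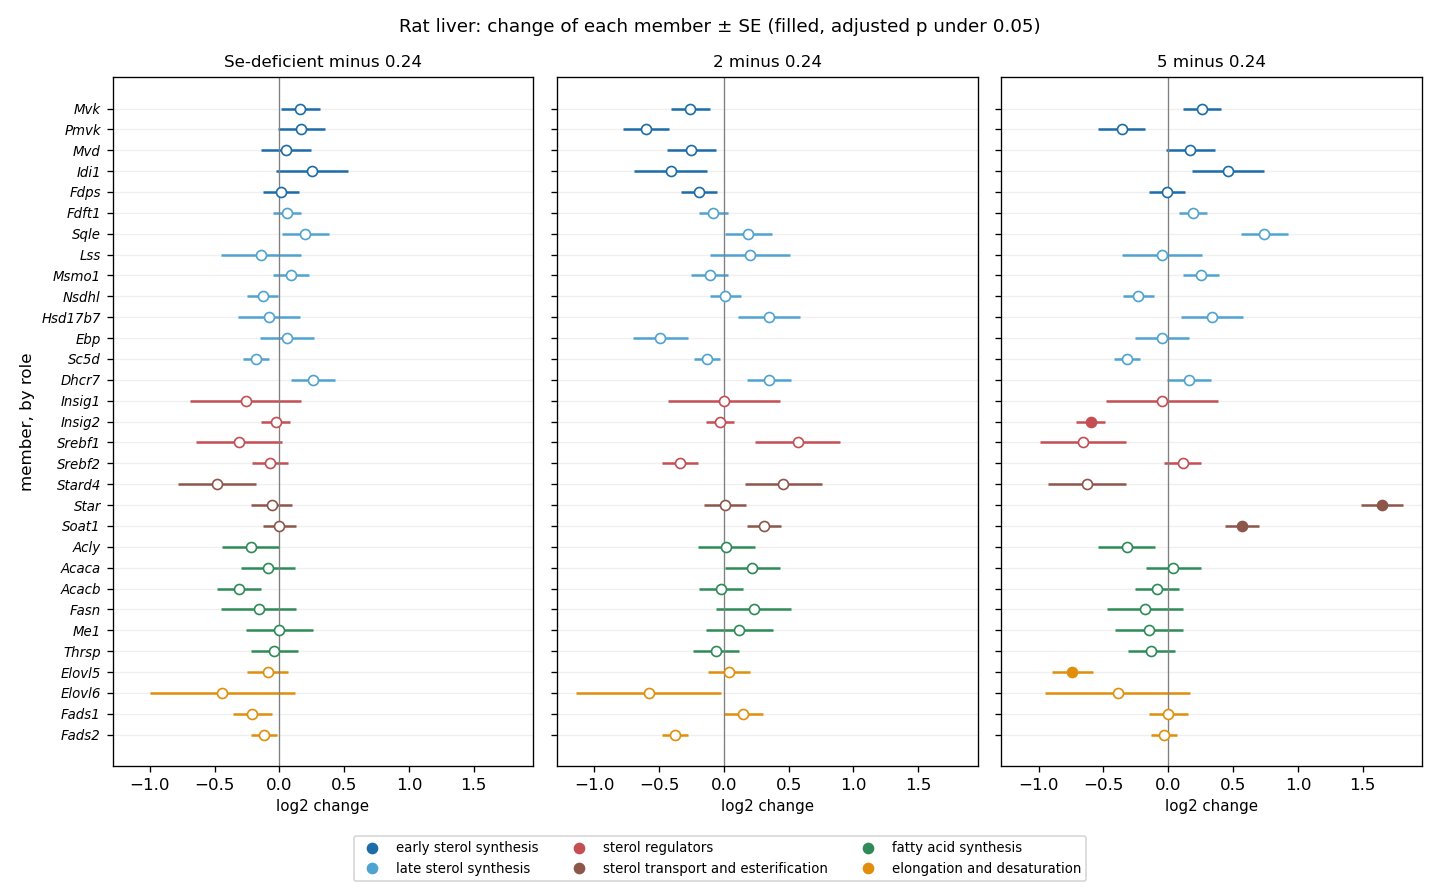
Log2 change of each of 31 genes in rat liver (horizontal axes, ± SE) for the Se-deficient, 2 and 5 μg Se/g diets, each minus 0.24 μg Se/g, with genes ordered and coloured by role; filled points have an adjusted p under 0.05. Filled points appear at 5 μg Se/g for Star, Soat1, Insig2 and Elovl5.

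Levels of the synthesis genes were spread more widely between rats fed 2 or 5 μg Se/g than between those fed 0.24 μg Se/g. Over the 31 genes the median SD between the 3 arrays was 0.104 on the 0.24 μg diet, 0.289 on the 2 μg diet and 0.304 on the 5 μg diet, while over all probe sets it was 0.14, 0.174 and 0.113. The SD was wider than at 0.24 μg Se/g for 28 of the 31 genes at 5 μg Se/g, against 41.2% of all probe sets, and for 28 of the 31 at 2 μg Se/g, against 59.2%. These counts share the 0.24 μg Se/g arrays. In Se-deficient rats the median SD was 0.0934, and 18 of the 31 genes were wider, against 40.3% of all probe sets. Wider SDs were also counted for 25 of the 31 genes at 0.08 and 22 at 0.8 μg Se/g in rat study 1 (49.9% and 44.2% of all probe sets), so the narrow spread at 0.24 μg Se/g enters every such count.

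At 5 μg Se/g the variation ran through the pathway in 1 animal. Replicate 1 was the highest of the 3 arrays for all 5 early and all 9 late sterol enzymes, for all 6 genes of fatty acid synthesis and for 3 of 4 genes of elongation and desaturation, against 32.4% of all probe sets. Fasn, fatty acid synthase, lay at 13.13 on that array and at 12.46 and 12.09 on the others. Me1, malic enzyme, which supplies NADPH, lay at 12.57 there and at 11.31 and 11.76 on the others. Lss, lanosterol synthase, lay at 10.84 there and at 9.53 and 9.87 on the others. Star, Soat1, Insig2 and Elovl5 did not share this order, and Elovl5 was lowest on replicate 1.

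At 2 μg Se/g the low array was replicate 3, which was the lowest for all 6 genes of fatty acid synthesis and all 3 of sterol transport and esterification, against 36.7% of all probe sets. Fasn lay at 13.23, 13.40 and 12.28 in replicates 1 to 3 of that diet, and Insig1 at 12.62, 12.94 and 11.01. The early sterol enzymes ran the other way. Replicate 1 was the lowest for all 5 of them, against 37.8% of all probe sets, with Idi1, isopentenyl diphosphate isomerase, at 9.73, 10.50 and 11.02. The late sterol enzymes did not follow the early ones: replicate 1 was the highest for 7 of 9, against 39.3% of all probe sets, and replicate 3 the lowest for 5 of 9. Orders shared through a role were not particular to high Se. At 0.08 μg Se/g replicate 2 was the highest for all 6 genes of fatty acid synthesis and all 4 of elongation and desaturation. It was also the highest for 4 of 5 early and 5 of 9 late sterol enzymes, against 32% of all probe sets. In Se-deficient mouse liver replicate 1 was the highest for all 6 genes of fatty acid synthesis, against 35.8%.

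**Figure D3:**
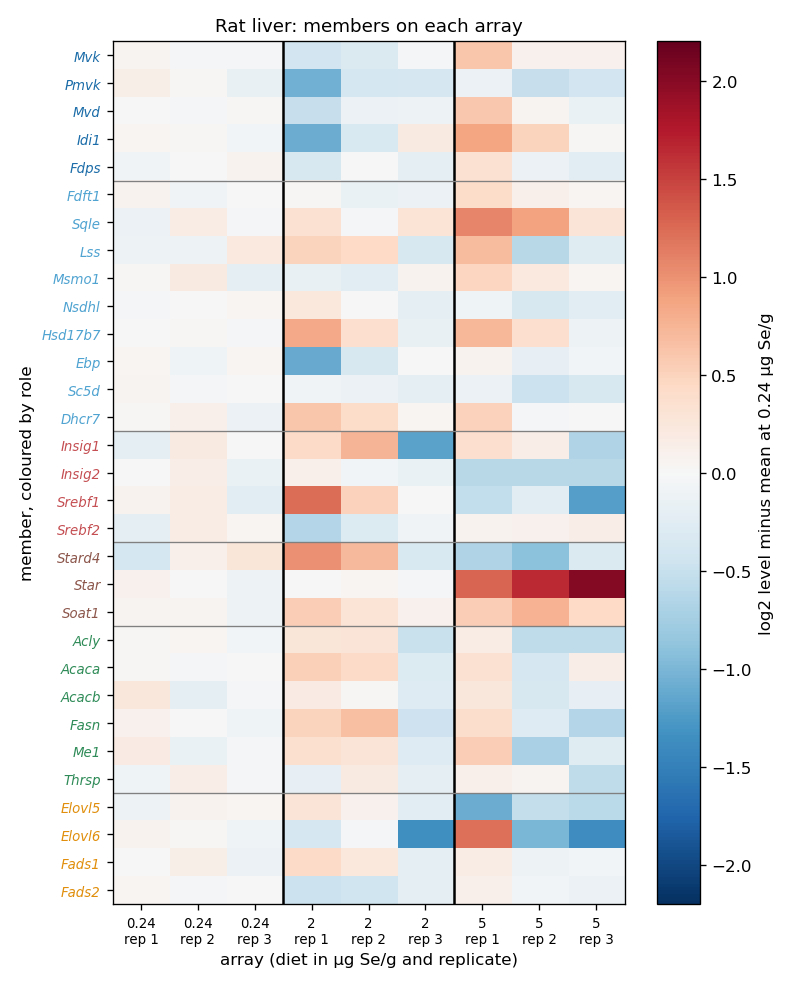
Log2 level of 31 genes (rows, coloured by role) on the 9 rat liver arrays at 0.24, 2 and 5 μg Se/g (columns), minus the mean at 0.24 μg Se/g (red higher, blue lower). Replicate 1 at 5 μg Se/g is the highest of its group for all 14 sterol synthesis enzymes and all 6 fatty acid synthesis genes, and Star is high on all 3 arrays at 5 μg Se/g.

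Genes around the pathway were read from lists. None of 7 other sterol synthesis genes and none of 15 other genes of fatty acid and triglyceride synthesis were called at 5 against 0.24 μg Se/g, with medians of 0.02 and -0.09. The smallest p values of the second list belonged to Acsl5, an acyl-CoA synthetase (-0.51 ± 0.15, adjusted p = 0.10), and Lpin1, a phosphatidate phosphatase (0.96 ± 0.30, adjusted p = 0.14). Of 9 genes of SREBP processing and its upstream receptors 1 was called: Nr1h3, the oxysterol receptor LXR alpha, lay at 9.80, 9.71 and 9.94 at 5 μg Se/g, against 10.35, 10.45 and 10.17 at 0.24 μg Se/g (log2 change -0.51 ± 0.10, adjusted p = 0.016). Of 10 genes of sterol export and bile acid synthesis 1 was called, Abcg1, a sterol exporter, at 0.72 ± 0.15 (adjusted p = 0.022). Cyp7a1, the rate-limiting enzyme of bile acid synthesis, lay at 10.33, 9.89 and 9.54 with 5 μg Se/g, against 7.49, 8.59 and 7.26 with 0.24 μg Se/g (log2 change 2.14 ± 0.56, adjusted p = 0.07). None of 6 genes of NADPH supply and none of 9 fasting-response genes were called, with medians of 0.16 and 0.41. The fasting-response changes ran from -0.97 to 2.21, and 6 of the 9 were positive. Arrays did not overlap for 2 of them that were higher and 1 that was lower, beside 11.1% and 12.5% of all probe sets. The study reported lower body weight and raised markers of liver damage on the highest Se diet. From the transcripts altered by that diet, its authors removed those shared with caloric restriction data and those present on a toxicity array. The part of fasting or reduced growth in the changes at 5 μg Se/g was not tested.

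Clock genes and markers of other liver cells also differed at 5 μg Se/g. Of 12 clock genes, 3 were called higher: Nr1d1 (3.16 ± 0.60, adjusted p = 0.017), Nr1d2 (1.96 ± 0.33, adjusted p = 0.0092) and Per3 (1.75 ± 0.33, adjusted p = 0.016). None were called lower, although 6 of the 12 changes were negative, with Cry1 at -1.77 ± 0.46 (adjusted p = 0.071), without overlap, and Nfil3 at -1.06 ± 0.33 (adjusted p = 0.14). Dbp, a clock output gene, lay at 9.86, 6.39 and 7.30 at 5 μg Se/g, highest on replicate 1, against 6.23, 5.62 and 6.20 at 0.24 μg Se/g. Of 7 stellate and fibroblast markers, Col1a1, Col1a2 and Des were called higher and Lrat lower, and their summed level was 12.48 to 12.97 at 5 μg Se/g, against 12.28 to 12.86 at 0.24 μg Se/g. Of 7 macrophage markers, Clec4f was called lower (-1.78 ± 0.33, adjusted p = 0.014) and none higher, with a summed level of 12.74 to 13.12 in rats fed 5 μg Se/g, against 13.07 to 13.44 in those fed 0.24 μg Se/g. None of 8 hepatocyte and none of 6 lymphocyte and erythroid markers were called, although the summed level of the lymphocyte and erythroid markers was 9.42 to 10.04 in rats fed 5 μg Se/g, against 9.01 to 9.33 in those fed 0.24 μg Se/g. Of 5 endothelial markers, Pecam1 and Tek were called higher, while Kdr, Stab2 and Lyve1 had changes of -0.30, -0.35 and -0.14 that were not called (median of the 5 -0.14, summed level 12.33 to 12.68 with 5 μg Se/g, against 12.40 to 12.76 with 0.24 μg Se/g). Of 4 bile duct markers, Krt19 was called higher (2.63 ± 0.32, adjusted p = 0.0018), with a summed level of 9.90 to 12.03 with 5 μg Se/g, against 8.56 to 11.58 with 0.24 μg Se/g. Of 9 adipocyte markers, Fabp4 was called higher (3.51 ± 0.48, adjusted p = 0.0032). Changes were positive for 2 of the 9. Arrays did not overlap for 2 that were higher and 0 that were lower, beside 11.1% and 12.5% of all probe sets. Adipoq averaged 4.51 and 4.77, Plin1 4.53 and 4.62 and Lep 4.50 and 4.75 at 5 and 0.24 μg Se/g. The summed level of the adipocyte markers was 11.21 to 11.85 with 5 μg Se/g, against 11.05 to 11.12 with 0.24 μg Se/g. The part of these genes in the changes of Star, Soat1, Insig2 and Elovl5 was not tested.

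Against 2 μg Se/g, which shares the 5 μg Se/g arrays with the preceding comparison, Star was called higher at 5 μg Se/g (1.64 ± 0.16, adjusted p = 0.0010) and Insig2 (-0.57 ± 0.11, adjusted p = 0.022) and Elovl5 (-0.78 ± 0.16, adjusted p = 0.031) lower. This is 1 of 31 genes beside 2.13% of all probe sets called higher and 2 of 31 beside 1.21% called lower. Srebf1, the source of SREBP-1c, lay at 10.75, 11.06 and 10.07 at 5 μg Se/g, against 12.52, 11.79 and 11.28 at 2 μg Se/g. The groups did not overlap, but the change of -1.24 ± 0.33 was not called (adjusted p = 0.065). At 0.24 μg Se/g Srebf1 lay at 11.37, 11.46 and 11.04, and the difference from 5 μg Se/g was -0.66 ± 0.33 (adjusted p = 0.39). In all, the arrays did not overlap for 5 genes that were higher and 3 that were lower, beside 10.6% and 10.5% of all probe sets. The counts of calls depended on single arrays. No share of all probe sets is set beside the refitted counts that follow, so they describe stability and not the pathway. Without replicate 3 of the 2 μg diet 8 genes were called higher and 6 lower, without its replicate 1 or replicate 2 there were 1 and 0 each time, as also without replicate 1 or replicate 2 at 5 μg Se/g, and without both replicates 1 and 2 of the 2 μg diet none were called. Without replicate 3 at 5 μg Se/g 2 were higher and 2 lower, and without Se-deficient replicate 2 or replicate 3, or replicate 1 at 0.24 μg Se/g, 1 was higher and 1 lower.

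At 2 against 0.24 μg Se/g none of the 31 genes were called, beside 0.00322% of all probe sets. Changes ran from -0.60 to 0.57 with a median of 0.00, and 5 genes had an unadjusted p under 0.05, beside 15.3% of all probe sets, which is about the same share. The smallest belonged to Fads2, the delta-6 desaturase, which lay at 11.66, 11.68 and 11.91 at 2 μg Se/g, against 12.17, 12.10 and 12.11 at 0.24 μg Se/g (log2 change -0.38 ± 0.10, adjusted p = 0.32). Arrays did not overlap for 1 gene that was higher, Soat1, and 4 that were lower, Pmvk, Mvd, Sc5d and Fads2, beside 5.85% and 6.9% of all probe sets. Without replicate 3 at 2 μg Se/g, 3 genes were called higher and 4 lower, with no share of all probe sets given for that fit.

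Se deficiency changed none of the 31 genes in rat liver at an adjusted p under 0.05, beside 0.00322% of all probe sets, and none had an unadjusted p under 0.05 (3.4% of all probe sets). The changes from 0.24 μg Se/g lay between -0.48 and 0.26, with a median of -0.07. The arrays did not overlap for 4 genes that were higher, Mvk, Idi1, Sqle and Dhcr7, and for 5 that were lower, Nsdhl, Sc5d, Acly, Acacb and Fads2, beside 5.75% and 5.89% of all probe sets. All 4 that lay higher were sterol synthesis enzymes, as were Nsdhl and Sc5d among the 5 that lay lower. Sqle lay at 9.35, 9.37 and 9.34 in Se-deficient rats, against 9.03, 9.32 and 9.11 at 0.24 μg Se/g (log2 change 0.20 ± 0.18). Acly lay at 13.17, 13.09 and 13.09 in Se-deficient rats, against 13.36, 13.37 and 13.27 in rats fed 0.24 μg Se/g (log2 change -0.22 ± 0.22). In rat study 1 none were called at 0.8 against 0.08 μg Se/g (0% of all probe sets), where the smallest p belonged to Thrsp, a lipogenic regulator, at -0.41 ± 0.14 (adjusted p = 0.97), the only gene with an unadjusted p under 0.05 (4.58% of all probe sets).

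In mouse liver, Se deficiency produced no call among the 32 genes, beside 0.0222% of all probe sets called, but most changes were small and negative. Only 5 of the 32 changes were positive, against 43.9% of all probe sets, and the median was -0.11, against -0.016. All 9 late enzymes (-0.24 to -0.03) and 5 of the 6 early enzymes had negative changes. Idi1 had the smallest p, at 11.25, 11.38 and 11.36 in Se-deficient mice, against 11.69, 11.59 and 11.62 at 0.2 μg Se/g, without overlap (log2 change -0.30 ± 0.10, adjusted p = 0.93). Fdft1, squalene synthase, was the other gene with an unadjusted p under 0.05 (4.63% of all probe sets), at 10.46, 10.25 and 10.26 in Se-deficient mice, against 10.68, 10.56 and 10.46 in mice fed 0.2 μg Se/g (log2 change -0.24 ± 0.09, adjusted p = 0.93). Arrays did not overlap for 1 gene that was higher, Me1, and 3 that were lower, Mvk, Idi1 and Fdft1, beside 3.45% and 4.15% of all probe sets. These values are from the unpaired fit. Same-numbered Se-deficient and 0.2 μg Se/g livers deviated together, though weakly for number 2 (r = 0.462, 0.105 and 0.319). A fit with the number as a block also called none. Within the 3 pairs, 12 of the 32 genes (37.5%) were lower in every pair, against 17% of all probe sets, and 1 was higher in every pair, against 12.7%. The labels name no pairs of mice, and the pairing by number was chosen from these same arrays. Genes measured in the same animals are not independent either, so the pair counts are a description. Of the 12, 10 were sterol enzymes, and the others were Srebf2 and Thrsp.

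With 0.05 against 0.2 μg Se/g in mouse liver none were called (0% of all probe sets), and 2 genes, Idi1 and Msmo1, had an unadjusted p under 0.05, beside 1.95% of all probe sets. Of the 32 changes 2 were positive, against 51.4% of all probe sets, and the median was -0.10, against 0.003. Without replicate 3 at 0.05 μg Se/g, left out after its values were seen because it departed from the 0.2 μg Se/g mean by more than 2-fold at 174 probe sets (36 and 28 for replicates 1 and 2), 5 changes were positive and the median was -0.10. Both comparisons share the arrays at 0.2 μg Se/g, so their directions are not independent. The lowest change was that of Thrsp, at -0.33 ± 0.19. Macrophage markers lay on the other side of 0. None of the 8 were called, but 8 were positive at 0.05 μg Se/g (median 0.37) and 7 in Se deficiency (median 0.22), with a summed level of 11.97 to 13.19 in Se-deficient livers and 12.36 to 13.44 at 0.05 μg Se/g, against 11.93 to 12.63 at 0.2 μg Se/g. By array, the marker mean was 8.19, 9.54 and 8.56 in Se deficiency and 8.75, 8.63 and 9.76 at 0.05 μg Se/g. It was 8.26, 8.68 and 8.79 at 0.2 μg Se/g. Only 1 array of each lower diet thus lay above the 0.2 μg Se/g arrays, at 0.05 μg Se/g the replicate 3 left out above. The part of macrophage markers in the small negative changes was not tested. The genes called in rat liver at 5 μg Se/g were near their 0.2 μg Se/g levels in Se-deficient mouse liver, with changes of -0.03 ± 0.13 for Star, -0.01 ± 0.11 for Insig2 and -0.07 ± 0.11 for Elovl5.

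**Figure D4:**
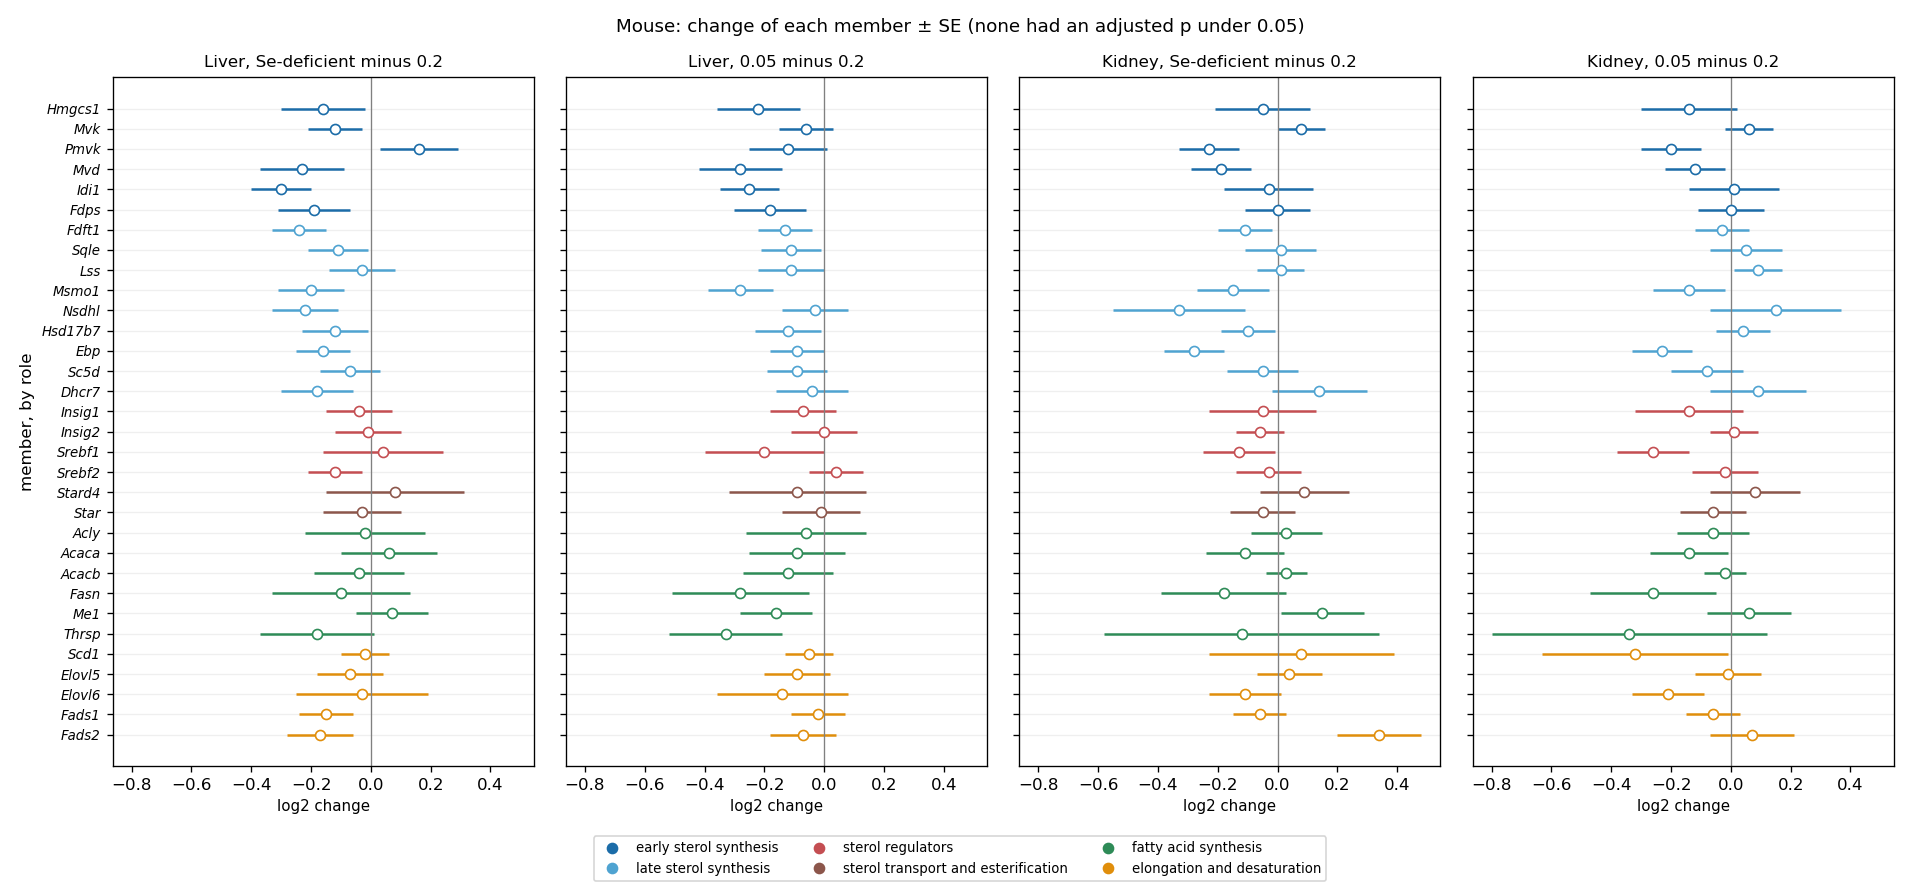
Log2 change of each of 32 genes (horizontal axes, ± SE) in mouse liver and kidney for the Se-deficient and 0.05 μg Se/g diets, each minus 0.2 μg Se/g, with genes ordered and coloured by role. No gene had an adjusted p under 0.05, and most liver changes lie just below 0 (medians -0.11 and -0.10).

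In mouse kidney none of the 32 genes were called in Se deficiency (0.00666% of all probe sets called) or at 0.05 μg Se/g (0%). The smallest p in Se deficiency was that of Ebp, a sterol isomerase (-0.28 ± 0.10, adjusted p = 0.89), and 12 of 32 changes were positive there and 12 with the 0.05 μg diet (47.3% and 49.2% of all probe sets). An unadjusted p under 0.05 was found for 3 genes in Se deficiency and for 2 with the 0.05 μg diet, beside 5.42% and 2.91% of all probe sets. The response to Se deficiency in liver minus that in kidney was called for none of the 32 genes (0.00222% of all probe sets called). The study's methods give 3 mice per diet for both tissues, so liver and kidney appear to come from the same animals, although no label says that equal numbers mark 1 mouse. Same-numbered liver and kidney arrays deviated together at 0.05 μg Se/g (r = 0.212, 0.249 and 0.212) and at 0.2 μg Se/g (0.241, 0.116 and 0.214). In Se deficiency they did not (-0.114, 0.0313 and -0.0631). The fit treated all arrays as independent, and a fit with liver and kidney of the same diet and number as a block also called none. The liver response minus the kidney response was farthest from 0 for Fads2 (-0.51 ± 0.19, adjusted p = 0.83), with changes of -0.17 in liver and 0.34 in kidney. At 0.2 μg Se/g, 31 of the 32 genes had a higher signal in liver than in kidney on the same probe set, and 25 were more than 2-fold higher, against 6.25% of all probe sets. The arrays of the 2 tissues were processed separately, so these ratios are a description. Thrsp was 60.8-fold higher in liver and Fdps, farnesyl diphosphate synthase, 32.6-fold. For Scd1, the stearoyl-CoA desaturase, no fold is given, because its liver levels of 14.40, 14.50 and 14.46 lay close to the highest value on those arrays (14.94 to 14.96). Sqle was 1.3-fold higher in liver, and Star alone was lower in liver than in kidney, with means of 7.68 and 7.96.

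Thrsp, Scd1 and Fasn had the widest ranges of the 32 genes over the 9 kidney arrays (2.00, 1.46 and 0.99), whereas the lipogenic genes Acaca, Me1, Acly and Acacb spanned 0.54, 0.50, 0.45 and 0.19. Thrsp spanned this range while its changes with diet were -0.12 ± 0.46 and -0.34 ± 0.46. It lay at 7.28, 8.03 and 8.30 in Se-deficient kidneys, 7.55, 8.45 and 6.94 with 0.05 μg Se/g and 8.94, 7.78 and 7.24 with 0.2 μg Se/g. Ucp1, which defines brown fat, lay at 6.10, 6.89 and 7.14 in Se-deficient kidneys, 6.39, 7.07 and 6.16 with 0.05 μg Se/g and 8.35, 5.77 and 6.05 with 0.2 μg Se/g. The 4 arrays with the highest Thrsp were also the 4 with the highest Ucp1 and the 4 with the highest Scd1. Replicate 1 at 0.2 μg Se/g was the highest of the 9 arrays for Thrsp, Scd1 (10.18) and Fasn (9.54), for Ucp1, and for the adipocyte markers Adipoq (6.79, against 4.40 to 5.68 on the other arrays) and Fabp4 (10.97). The other 4 of the 7 adipocyte markers, Lep, Cidec, Retn and Lipe, did not share this order. The part of fat tissue in the kidney levels of Thrsp, Scd1 and Fasn was not tested.

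**Figure D5:**
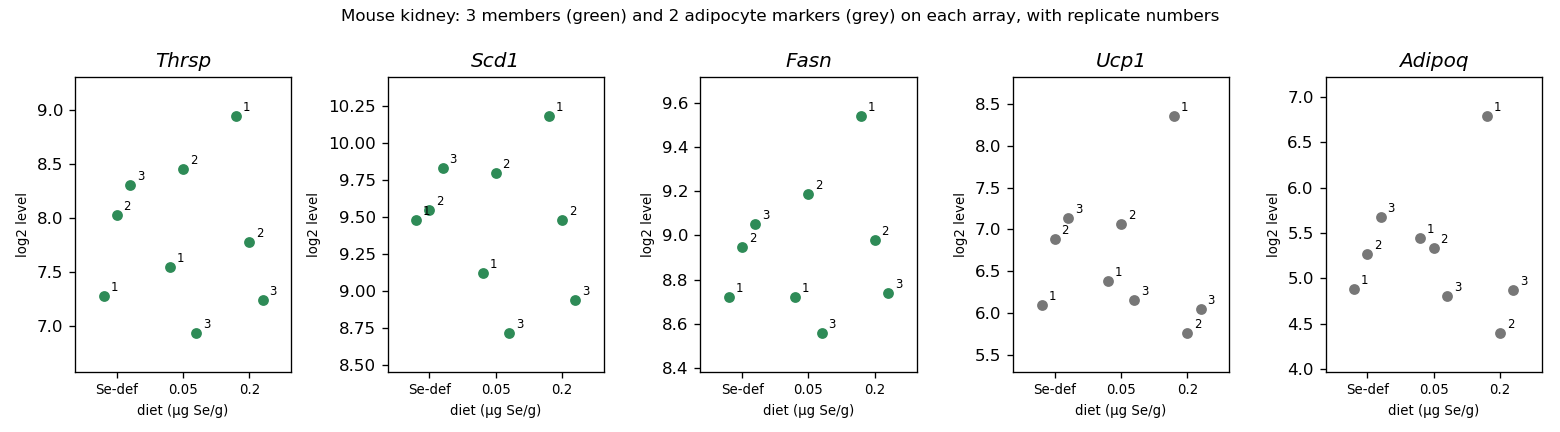
Log2 level (vertical axes) of Thrsp, Scd1 and Fasn (green) and of the adipocyte markers Ucp1 and Adipoq (grey) on the 9 mouse kidney arrays by diet in μg Se/g, with replicate numbers beside the points. Replicate 1 at 0.2 μg Se/g is highest in all 5 panels (Thrsp 8.94, Ucp1 8.35).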

How the data were processed

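Labelled RNA of liver and kidney was hybridised to Affymetrix whole-genome mouse and rat arrays, 1 animal per array. By the study's methods, mRNA was first purified from the total RNA of mouse tissues, whereas rat liver total RNA was submitted for labelling. The deposited values are log2 expression per probe set, background-corrected and normalized by the authors. The submitters' notes name GCRMA and the study's methods name RMA, and which was used is not settled. The authors normalized mouse liver, mouse kidney and the rat studies each on their own, so levels between tissues or between the rat studies are a description. Array control probe sets (64 mouse, 57 rat) were left out. Each comparison was fitted with limma 3.58.1 (lmFit, eBayes) in R 4.3.3 within mouse liver, mouse kidney, rat study 1 or rat study 2, with p-values adjusted by the Benjamini-Hochberg method over all probe sets, and the test was checked on simulated data. With 3 arrays per group, an exact test of 3 against 3 could not go below 0.1. Values of every array are given for genes called in any comparison, for the gene with the smallest p of each role at 5 against 0.24 μg Se/g, and for genes without overlap whose change exceeded 0.8; others were added after their values were seen. The 33 genes and the surrounding lists were chosen with earlier results of these data known. Same-numbered Se-deficient and 0.2 μg Se/g mouse liver arrays deviated together (r = 0.462, 0.105 and 0.319) and were taken as paired by number (the values given are unpaired, as the block changed no call there), while in no other comparison of diets did every pair exceed 0.1. Alternatives covered the arrays in the fit, variance model, array weights, low probe sets, quantile normalization, a replicate block, averaging of probe sets and leaving out arrays.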

Additional observations from a re-analysis of the deposited data

How the results depend on the processing

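The counts of genes called were recomputed 380 times under alternatives and stayed within 1.5 times of the reported count in 337. This total is no measure of how stable the calls were. No share of all probe sets is set beside the recomputed counts, so larger counts are no result about these genes. Of the 380 counts, 296 belonged to comparisons with a reported count of 0, and 292 of those stayed at 0. Calls could be lost only in the comparisons of 5 μg Se/g, where the counts moved more often. At 5 against 0.24 μg Se/g, 1 gene was called lower with only the arrays of both diets, 1 higher without low probe sets (Sqle, as Star and Soat1 fell below the median) and 1 higher with probe sets averaged per gene. Leaving out 1 array gave 1 to 3 genes higher and 0 to 2 lower. Star was called in all 12 of these fits, with adjusted p up to 0.0044. At 5 against 2 μg Se/g, 0 genes were higher and 0 lower with only the arrays of both diets or without replicates 1 and 2 at 2 μg Se/g, 0 were higher without low probe sets, 2 were higher and 4 lower with all rat arrays in one fit, and 11 were higher and 14 lower with array weights; leaving out 1 array gave 1 to 8 higher and 0 to 6 lower. At 2 against 0.24 μg Se/g, array weights gave 9 higher and 7 lower, and leaving out 1 array 0 to 3 higher and 0 to 4 lower. The estimation of array weights in rat study 2 stopped before convergence. In the other comparisons every count stayed at 0. With the replicate number as a block, 2 genes were higher and 2 lower at 5 against 0.24 μg Se/g, 1 was higher and 3 were lower at 5 against 2 μg Se/g, where Srebf1 passed the test (-1.24, adjusted p = 0.019), and no other call changed. No log2 change named in the rule for genes turned its sign under any alternative. The number of arrays limits the precision of each value.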
